A study of Drosophila ananassae and Drosophila erecta and Drosophila sechellia with 40 samples.

Results

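The 8 odorant receptor (Or) genes Or49b, Or13a, Or69a, Or67b, Or67a, Or49a, Or85f and Or35a were followed in the antennae of 6 Drosophila species. They were chosen by name as the receptors assigned to the antennal sensilla ab6 (Or49b), ai1 (Or13a), ab9 (Or69a and Or67b), ab10 (Or67a, Or49a and Or85f) and ac3 (Or35a), and they are 8 of the 22594 genes listed at all 4 stages. RNA-seq libraries were made from wild-type flies, a single stock line per species, of D. sechellia, D. erecta, D. ananassae, D. virilis and D. simulans, with 2 libraries per species and stage and 40 in all. The stages were antennal discs of wandering larvae of the third instar (3L), antennal discs at 8 hours after puparium formation (p8), antennae at 40 hours (p40) and adult antennae (AA). Pupae of D. virilis, which develop more slowly, were taken at 10 and 48 hours. Each RNA pool held tissue of about 70 larvae or pupae or 300 adults, and the adults were of both sexes and at least a week old. D. sechellia feeds on noni and D. erecta on Pandanus, and both are host specialists, while D. simulans is a generalist sister of D. sechellia. The values are normalized transcript counts, which the authors made comparable between the species of one stage. They are not divided by transcript length, so levels were compared between species for one gene and not between genes. Reads were mapped to each species' own transcripts. A species difference in the annotated length of a gene can therefore also enter these comparisons, and this was not tested. For D. melanogaster the authors' mean alone was used, with no libraries and no test.

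An olfactory neuron of the antenna usually expresses one Or gene together with the co-receptor Orco, and the receptor sets which odours open the ion channel that both form. The neurons sit in small groups in sensory hairs, the sensilla, each with a fixed set of receptors: large and small basiconic (ab), intermediate (ai) and coeloconic (ac) types. The neurons are specified in the antennal disc and late in pupal life most of them switch on their receptor. In D. melanogaster, Or49b responds to phenolic odours, Or13a to the mushroom alcohol 1-octen-3-ol, Or69a to terpenes and a fly pheromone, Or67b to leaf and aromatic odours, Or67a to aromatic esters and Or35a to a broad set of alcohols and esters of fermenting or green plants. Or49a and Or85f, in the same species, share a neuron that detects the odour of parasitoid wasps and drives avoidance.

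The authors deposited means, and the reads of both libraries were recovered from each mean for all 118 member means above 0. The paired libraries are called A and B, A having the larger scaling factor, and these letters pair nothing between species or stages. Recovered reads ran from about 17767600 to 26643600 per library at p8 and from 11690700 to 23729900 at p40. At 3L and in adults the largest counts were not resolved, so the depth of those libraries is unknown. The study's methods name the 2 libraries of a species and stage biological replicates, each from a pool of many animals, so p-values measure the spread between such pools. In bulk RNA, fewer cells of a type and less RNA per cell cannot be told apart. Markers of olfactory neurons were high in adults of every species, with summed levels of the 7 genes from 51995 to 88628 normalized counts and Orco from 28702 (D. virilis) to 50964 (D. ananassae). One adult library stood apart: D. sechellia library B held 18752 normalized counts of ninaE, the main photoreceptor opsin, against 147 in D. sechellia library A and at most 537 in the other adult libraries. The members' calls for D. sechellia against D. simulans and D. erecta were also made without it. Muscle markers were uneven in adults too, with a summed level of 2267 in D. sechellia and 7850 in D. erecta, against 796 in D. simulans. The 7 maxillary palp receptors, genes of the other olfactory organ of the head, summed to 630.4 in the D. sechellia and 1035 in the D. erecta antennae, against 145 in D. simulans, with 2 of the 5 tested higher and 1 lower in D. sechellia than in D. simulans (median log2 1.83) and 3 higher and 2 lower in D. erecta (2.09). The part of such tissue in the receptor values was not tested. For a multi-copy gene the authors kept the highest expressed transcript, so copies of a receptor cannot be told apart.

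In adult antennae the receptors differed between species in both directions. Of the 7 members with values in both species, 5 passed the test between D. sechellia and D. simulans, 4 of them higher and Or13a lower in D. sechellia, where 46.7% of all genes passed. The test was limma on log2(normalized count + 1), with a Benjamini-Hochberg adjusted p under 0.05 over all genes. Between D. erecta and D. simulans 3 of 7 passed, all higher in D. erecta, against 58.0% of all genes. Between the 2 specialists 5 of 8 passed, against 51.0%. The median log2 fold change of the members over D. simulans was 0.93 in D. sechellia and 0.60 in D. erecta, beside 0.067 and 0.029 over all genes tested. Of the other antennal Or genes, 12 of the 27 tested were higher and 3 lower in D. sechellia than in D. simulans, with a median of 0.21, and 9 of 28 were higher and 5 lower in D. erecta, with a median of 0.057. These shares are of the size of those over all genes and show nothing particular to the 8 receptors. Without D. sechellia library B, 4 of 7 members passed against D. simulans (34.4% of all genes) and 2 of 8 against D. erecta (38.5%), and the lone library was then taken to vary as the others did. The 4 were Or49b at a log2 fold change of 1.56 (limma adjusted p = 0.00158), Or69a at 1.01 (0.0144), Or67b at 1.26 (0.00350) and Or67a at 0.61 (0.0148).

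**Figure D1:**
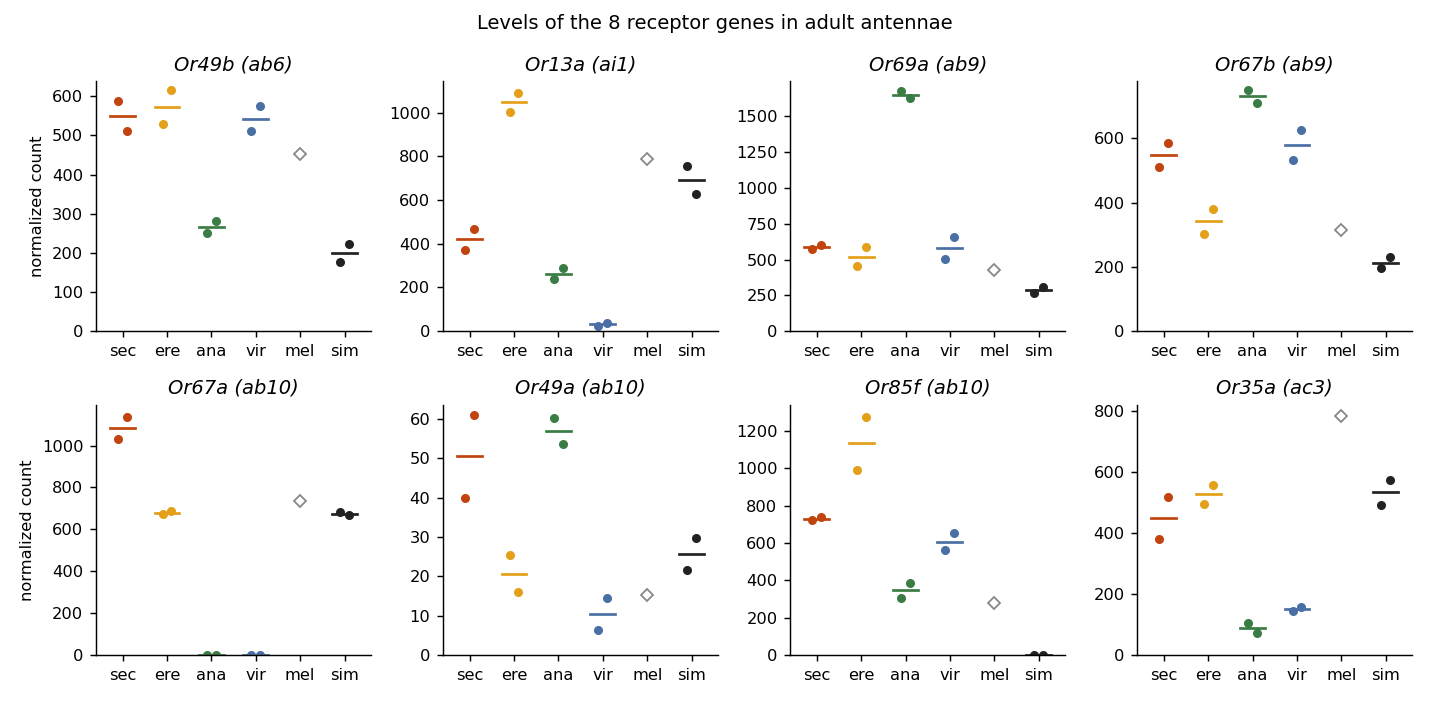
Normalized counts of the 8 receptor genes in adult antennae, one panel per gene with its sensillum. Filled points are the 2 libraries of a species, lines their mean, and open diamonds the authors' mean for D. melanogaster; Or49b sat between 509.8 and 617 in D. sechellia, D. erecta and D. virilis, and between 177 and 223 in the D. simulans libraries.

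Or49b, the phenol receptor of ab6, was higher in both specialists than in D. simulans. It had 588 and 511 normalized counts in D. sechellia and 529 and 617 in the D. erecta libraries, against 177 and 223 in D. simulans, with no overlap. D. virilis, with 509.8 and 576, lay among the specialists, while D. ananassae had 252 and 281 and the D. melanogaster mean was 452. The log2 fold change over D. simulans was 1.46 ± 0.15 in D. sechellia (SE, limma adjusted p = 0.000165), 1.52 ± 0.15 in D. erecta (adjusted p = 0.000101) and 1.44 ± 0.15 in D. virilis (adjusted p = 8.61e-05). D. sechellia and D. erecta themselves differed by -0.059 ± 0.15 (limma adjusted p = 0.767), so the 2 could not be ordered. D. ananassae was 0.42 ± 0.15 above D. simulans (limma adjusted p = 0.0443). That call ended under 9 of the 10 settings that left out 1 library, all but the one without D. simulans library B (adjusted p from 0.0527 to 0.226), and in a fit of these 2 species alone (adjusted p = 0.114).

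Or13a, the receptor for 1-octen-3-ol in ai1, was very low in D. virilis. It had 1003 and 1091 normalized counts in D. erecta, 371 and 468 in the D. sechellia libraries, 237 and 288 in the D. ananassae libraries and 24.2 and 38.9 in the D. virilis libraries, against 757 and 625 in D. simulans. The D. melanogaster mean was 789. D. virilis was far below the others, at a log2 fold change of -4.44 ± 0.23 against D. simulans (limma adjusted p = 2.72e-06), and D. ananassae was lower by -1.39 ± 0.23 (adjusted p = 0.00155). The specialists went apart: D. sechellia was -1.32 ± 0.23 against D. erecta (limma adjusted p = 0.00247). D. sechellia lay -0.72 ± 0.23 against D. simulans (limma adjusted p = 0.0374), but this call ended without any single library of D. sechellia, D. erecta or D. simulans (adjusted p from 0.0585 to 0.193) and relative to Orco (log2 -0.55, adjusted p = 0.0885). D. erecta was 0.60 ± 0.23 over D. simulans with an adjusted p of 0.0576 (limma), and its 2 libraries lay above both D. simulans libraries. That value passed with a pseudocount of 10 (0.60, adjusted p = 0.0364) and relative to Orco (0.83, adjusted p = 0.0183).

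Or69a and Or67b, the receptors of the neurons of ab9, were both lowest in D. simulans. Or69a, a receptor for terpenes, had 573 and 602 normalized counts in D. sechellia, 453 and 587 in the D. erecta libraries, 1674 and 1625 in the D. ananassae libraries and 502.5 and 656 in the D. virilis libraries, against 265 and 306 in D. simulans. Its D. melanogaster mean was 429. No library of another species reached down to the D. simulans range. The log2 fold change over D. simulans was 1.04 ± 0.16 in D. sechellia (limma adjusted p = 0.00145), 0.85 ± 0.16 in D. erecta (adjusted p = 0.00291) and 2.53 ± 0.16 in D. ananassae (adjusted p = 1.13e-05). D. sechellia, next in order, was lower than D. ananassae (-1.49 ± 0.16, limma adjusted p = 0.000132), while D. sechellia, D. virilis and D. erecta did not differ beyond their spread from each neighbour. Relative to Orco both specialists passed below D. virilis. D. sechellia was at -0.61 (limma adjusted p = 0.0105) and D. erecta at -0.75 (adjusted p = 0.00411).

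Or67b, a receptor for leaf and aromatic odours, had 509 and 586 normalized counts in D. sechellia, 304 and 380 in the D. erecta libraries, 749.9 and 709 in the D. ananassae libraries and 531 and 624 in the D. virilis libraries, against 196 and 229 in D. simulans. The D. melanogaster mean was 314. The species fell into an upper set of D. ananassae, D. virilis and D. sechellia, then D. erecta, then D. simulans. Within the upper set D. ananassae over D. virilis did not pass (0.34, limma adjusted p = 0.0731), and relative to Orco its sign turned (-0.49, adjusted p = 0.0181). D. sechellia was -0.42 ± 0.15 against D. ananassae (limma adjusted p = 0.0389), a call that ended relative to Orco (-0.24, adjusted p = 0.198). Under that scaling D. sechellia passed below D. virilis (-0.72, limma adjusted p = 0.00305). Over D. simulans the log2 fold change was 1.36 ± 0.15 in D. sechellia (limma adjusted p = 0.000227), 0.68 ± 0.15 in D. erecta (adjusted p = 0.00583) and 1.78 ± 0.15 in D. ananassae (adjusted p = 4.30e-05). The 2 specialists also differed, by 0.68 ± 0.15 (limma adjusted p = 0.00663), a call that was lost without D. sechellia library B (log2 0.58, adjusted p = 0.0508).

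Or67a, the ester receptor of ab10, was higher in D. sechellia than in the other species with values. It had 1030 and 1138 normalized counts in D. sechellia and 672 and 686 in the D. erecta libraries, against 683 and 666 in D. simulans, and the D. melanogaster mean was 735. D. erecta and D. simulans overlapped. D. sechellia was 0.68 ± 0.088 above D. simulans (limma adjusted p = 0.00169) and 0.67 ± 0.088 above D. erecta (adjusted p = 0.00171), and both calls held without its library B. The value for D. erecta against D. simulans was 0.0091 ± 0.088 (limma adjusted p = 0.944). The gene was listed at 0 in D. ananassae and D. virilis at all 4 stages and was treated as missing there, since a value of 0 can stand for an ortholog that was not found as well as for an unexpressed gene.

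The 2 receptors of the wasp-sensing neuron of ab10 did not follow the same order of species. Or85f had 721 and 740 normalized counts in D. sechellia, 991 and 1277 in the D. erecta libraries, 307 and 384 in the D. ananassae libraries and 559.8 and 653.5 in the D. virilis libraries, and it was listed at 0 in D. simulans at every stage. The D. melanogaster mean was 277. D. erecta was the highest species, and D. sechellia over D. erecta gave -0.62 ± 0.17 (limma adjusted p = 0.0190). That call was lost without D. sechellia library A (adjusted p = 0.0875), D. sechellia library B (0.0744) or D. erecta library B (log2 -0.44, 0.102). Against D. ananassae, Or85f was higher by 1.09 ± 0.17 in D. sechellia (limma adjusted p = 0.00119) and by 1.71 ± 0.17 in D. erecta (adjusted p = 0.000136). D. erecta was also above D. virilis (0.89, limma adjusted p = 0.00315), but not past the test relative to Orco (0.30, adjusted p = 0.150).

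Or49a was low everywhere in adults. It had 40.0 and 60.9 normalized counts in D. sechellia, 25.3 and 16.1 in the D. erecta libraries, 60.2 and 53.7 in the D. ananassae libraries and 6.45 and 14.6 in the D. virilis libraries, against 21.7 and 29.7 in D. simulans, from 8 to 82 reads per library. The D. melanogaster mean was 15.1. D. sechellia and D. ananassae lay above the other species, but none of the 4 steps between neighbours in that order passed the test. Over D. simulans, D. sechellia gave 0.93 ± 0.44 (limma adjusted p = 0.119) and D. virilis -1.29 ± 0.44 (adjusted p = 0.0305). D. sechellia over D. erecta gave 1.25 ± 0.44 (limma adjusted p = 0.0450), opposite in sign to Or85f, and this call ended under 8 of the 10 settings that left out 1 library (adjusted p up to 0.217) and relative to Orco (adjusted p = 0.0543). The D. virilis call ended without either D. simulans library (adjusted p = 0.0509 and 0.137) or without D. virilis library A (adjusted p = 0.169), and relative to Orco (log2 -0.54, adjusted p = 0.302). The difference between the 2 genes in their species effects was not tested.

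Or35a, the one Or gene of the coeloconic sensilla, overlapped in D. sechellia, D. erecta and D. simulans and was low in the distant species. It had 380.4 and 517 normalized counts in D. sechellia, 497 and 557 in the D. erecta libraries, 106 and 73.5 in the D. ananassae libraries and 145 and 158 in the D. virilis libraries, against 494 and 575 in D. simulans. The D. melanogaster mean was 786. The ranges of D. sechellia, D. erecta and D. simulans overlapped, with -0.26 ± 0.21 for D. sechellia over D. simulans (limma adjusted p = 0.343) and -0.019 ± 0.21 for D. erecta over D. simulans (adjusted p = 0.952). D. ananassae was -2.58 ± 0.21 against D. simulans (limma adjusted p = 3.85e-05) and D. virilis -1.81 ± 0.21 (adjusted p = 0.00016), or -0.99 relative to Orco (adjusted p = 0.00324).

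A list of ionotropic receptors (Irs) and co-receptors, taken here as partners of Or35a in ac3, moved with Or35a in part. Their levels are those of the whole antenna and not of ac3 alone. Ir75b, an acid receptor, had 1998 and 1957 normalized counts in D. sechellia and 979.8 and 918 in the D. erecta libraries, against 929 and 849.8 in D. simulans. In D. sechellia it was higher than in D. simulans (limma adjusted p = 0.000103), while Or35a did not pass there. In D. virilis Ir75b had 2393 and 1936 and was above D. simulans (1.28, limma adjusted p = 2.91e-05). The difference between Ir75b and Or35a in their species effects was not tested, nor was Ir75b tested without D. sechellia library B. Ir75c carried the same values as Ir75b in the 5 species with libraries, so these 2 names cannot be told apart here. Ir8a, a co-receptor on the list, was at 0 in D. simulans adults and was not tested against that species. With Ir75b and Ir75c counted once, 4 partners were tested against D. simulans. In D. sechellia 1 was higher (Ir75b) and 1 lower (Ir76b), in D. erecta 0 were higher and 2 lower (Ir75a and Ir76b), and in D. ananassae all 4 were lower, as was Or35a. In D. virilis, where Or35a was also lower, the acid receptor Ir75a (-0.74, limma adjusted p = 6.48e-05) and the co-receptors Ir25a (-0.54, adjusted p = 0.0284) and Ir76b (-1.16, adjusted p = 1.47e-05) were lower than in D. simulans.

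The outgroups differed from D. simulans in most members tested. In D. ananassae 5 of 6 members passed, 3 higher and 2 lower, where 58.4% of all genes passed, and in D. virilis 6 of 6 passed, 3 higher and 3 lower, against 67.7%. Or49b, Or69a and Or67b were higher and Or13a and Or35a lower than in D. simulans in both of these species. Of the other antennal Or genes, 11 of the 18 tested were lower and 1 higher in D. virilis, with a median log2 fold change of -1.19. Against D. ananassae, 6 of 7 members passed in D. sechellia (66.4% of all genes) and 7 of 7 in D. erecta (66.3%). Against D. virilis, 3 of 7 passed in D. sechellia (63.5%) and 4 of 7 in D. erecta (64.6%), and D. ananassae over D. virilis gave 6 of 7 (71.2%). Among these calls, that of Or13a in D. sechellia over D. ananassae ended without D. sechellia library B, either D. erecta library or either D. ananassae library (limma adjusted p from 0.0510 to 0.186), and that of Or67b without any single library of the 2 species (0.0561 to 0.192). That of Or49a in D. erecta over D. ananassae ended without D. erecta library B or either D. ananassae library (0.0570 to 0.112), and that of Or35a in D. ananassae over D. virilis without library B of either species (0.0739 and 0.0634). Along the orders of the 8 genes, 14 of 29 steps between neighbouring species passed the test.

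The study's measure of variability, the mean absolute log2 fold change over the species pairs, ranged from 0.36 to 2.03 among the members. It was 2.03 ± 0.12 for Or13a and 1.42 ± 0.092 for Or35a, then 1.13 ± 0.19 for Or49a, 1.03 ± 0.081 for Or85f, 0.94 ± 0.041 for Or69a, 0.81 ± 0.048 for Or67b, 0.73 ± 0.070 for Or49b and 0.36 ± 0.038 for Or67a. The error is the SD over the 32 choices of 1 library per species, and the value of Or67a rests on 6 pairs and that of Or85f on 10, against 15 for the others. The value of Or13a rested on D. virilis: without that species it was 0.98, below 1.296 for Or35a, 1.19 for Or85f, 1.101 for Or69a and 0.99 for Or49a. The median of the 8 was 0.98, beside 0.99 over 30 other antennal Or genes at 30 or more in some species and 0.68 over the 6213 genes at 30 or more in all 6 species. For the 5 members in that set, the genes with the most similar pattern over the 6 species means were sought by the root mean square difference of centred log2 levels. They were Trl, sd and Nep2 for Or49b (0.21 to 0.23), fog, RhoGAP19D and Akap200 for Or69a (0.12 to 0.20), Zip99C, gro and SPE for Or67b (0.21 to 0.23) and Cyp4g15, rdgC and CG14757 for Or35a (0.20 to 0.31). Or13a had no close companion, with GV1 nearest at 0.44. None of these nearest genes was another Or gene, and the likeness is over 6 means.

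Or49b differed widely between species before adulthood. At 3L its libraries held 616 and 614 normalized counts in D. sechellia, 714 and 654 in the D. erecta libraries and 987 and 922 in the D. virilis libraries, against 1.57 and 0 in D. simulans. It was listed at 0 in both D. ananassae libraries, and the D. melanogaster mean was 1.27. The species thus formed a high and a low set with no value between them. The 2 reads in D. simulans are 1 read pair, and by read pairs Or49b was 704-fold higher in D. sechellia (exact 95% interval 126 to 27826), 783-fold in D. erecta (140.1 to 30964) and 1094-fold in D. virilis (196 to 43235), where the intervals cover counting error only. Against D. ananassae it was at least 88.6-fold higher in D. sechellia, 98.5-fold in D. erecta and 137-fold in D. virilis, taking 3 read pairs in each library as the most that a count of 0 allows. In limma, a test added after these values were seen, the adjusted p against D. simulans was 3.62e-07 for D. sechellia, 3.15e-07 for D. erecta and 1.67e-07 for D. virilis.

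The same split held at p8 and p40. At p8 Or49b had 289 and 254 normalized counts in D. sechellia, 361 and 356 in the D. erecta libraries and 344 and 276 in the D. virilis libraries, against 0 in both libraries of D. simulans and of D. ananassae. That is at least 61.9-fold over D. simulans in D. sechellia, 81.7-fold in D. erecta and 70.7-fold in D. virilis. At p40 it had 89.0 and 114 in D. sechellia, 143 and 194 in the D. erecta libraries, 170.4 and 223 in the D. virilis libraries and 3.24 and 5.70 in the D. ananassae libraries, against 1.33 and 2.72 in D. simulans. By read pairs this was 55.7-fold over D. simulans in D. sechellia (exact 95% interval 15.0 to 466) and 93.9-fold in D. erecta (25.7 to 780.5), with limma adjusted p of 2.30e-05 and 1.16e-05. The fitted log2 fold changes, 5.11 and 5.83, were 3.04 (adjusted p = 3.98e-05) and 5.31 (adjusted p = 1.01e-05) relative to Orco. The 2 specialists did not pass the test against each other at p40 (-0.73 ± 0.38, limma adjusted p = 0.185), but relative to Orco they did (-2.27, adjusted p = 0.000285). Among the 6213 genes at 30 or more in all 6 adult antennae, Or49b alone was at 30 or more in these 3 species and at 3 or less in the other species at 3L. At p8 it shared that pattern with CG32271, and at p40 0 genes had it, Or49b itself being at 14.8 in D. melanogaster and 4.47 in D. ananassae. The pattern was drawn from the values of Or49b, so its presence there was given. By the same limits at 3L, D. sechellia, D. erecta and D. simulans shared 2 genes, and D. sechellia, D. erecta and D. melanogaster 1.

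**Figure D2:**
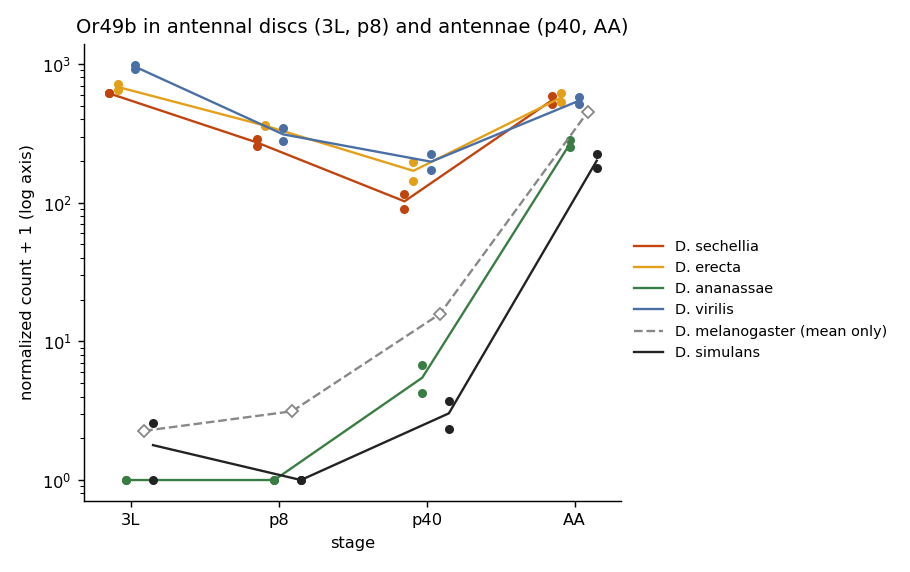
Or49b at the 4 stages in each species, as normalized count + 1 on a log axis; filled points are libraries, lines run through the species means and open diamonds are the authors' means for D. melanogaster. In discs D. sechellia, D. erecta and D. virilis sat at 254 normalized counts or more and the other species at 2.13 or less, while in adults the lowest library, of D. simulans, had 177. The authors scaled the stages separately, and a line's course between stages also holds that scaling.

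Some other measures moved with Or49b in the discs, and others went the other way. Orco was at 43.0 and 20.7 normalized counts in D. sechellia, 36.7 and 42.0 in the D. erecta libraries, 36.6 and 29.98 in the D. virilis libraries and 7.97 and 2.64 in the D. ananassae libraries at 3L, against 3.14 and 1.97 in D. simulans. These values lay above D. simulans in the same 3 species, but D. melanogaster, at 1.27 for Or49b, had an Orco mean of 27.7. Relative to Orco, Or49b at 3L was still higher than in D. simulans, with log2 fold changes of 4.97 for D. sechellia, 4.82 for D. erecta and 5.53 for D. virilis (limma adjusted p from 1.54e-06 to 4.09e-06). Orco in D. simulans rested there on 4 and 2 reads. Its mean was taken as fixed, so these adjusted p leave out its counting error. Photoreceptor markers were present in the discs of every species, from a summed 120.4 to 1388 normalized counts. They were at 1051 for D. sechellia, 1388 for D. erecta and 373 for D. virilis. D. simulans had 942, D. ananassae 831 and D. melanogaster 120.4. The 13 larval olfactory receptors summed to 160 normalized counts for D. sechellia, 129 for D. erecta and 44.7 for D. virilis. D. simulans had 12.0, D. ananassae 15.6 and D. melanogaster 11.7. The 7 maxillary palp receptors summed to 7.90 for D. sechellia, 17.8 for D. erecta and 31.98 for D. virilis. D. simulans had 5.91, D. ananassae 0 and D. melanogaster 7.10. At p8 the larval receptors summed to 1458 for D. sechellia, 946 for D. erecta and 38.4 for D. virilis. D. simulans had 13.9, D. ananassae 67.3 and D. melanogaster 10.7. Most of the first 2 sums was Or1a, at 1387 for D. sechellia and 864 for D. erecta. The 4 markers of olfactory support cells summed at 3L to 188 for D. sechellia, 265 for D. erecta and 58.6 for D. virilis. D. simulans had 28.9 and D. ananassae 30.4, while D. melanogaster, low in Or49b, had 397. Of these markers, 3 of 4 tested were higher than in D. simulans in D. sechellia (median log2 2.30), 4 of 4 in D. erecta (2.86) and 1 of 3 in D. virilis (0.72). The ac3 partners, with Ir75b and Ir75c as separate names, were higher at 3L in 3 of 5 tested in D. sechellia (2.197), 4 of 5 in D. erecta (5.54) and 1 of 5 in D. virilis (0.79). They summed to 110 for D. sechellia, 342 for D. erecta and 95.4 for D. virilis. D. simulans had 46.0, D. ananassae 6.94 and D. melanogaster 42.1. The 3L sums of the larval receptors and of these partners thus split the 6 species as Or49b did. The 7 neuron markers went the other way in their sum at 3L. It was 431 for D. sechellia, 555 for D. erecta and 604 for D. virilis. D. ananassae had 667, D. melanogaster 1001 and D. simulans 966. Most of the last was elav, at 850, and of 6 genes tested 2 were higher and 1 lower in D. sechellia (median log2 0.77). The 2 blood cell markers summed to 831 for D. sechellia, 177 for D. erecta and 130 for D. virilis. D. simulans had 1783, D. ananassae 2288 and D. melanogaster 420. The part of these cells and tissues in the Or49b values was not tested. The share of even read counts in a library split the 5 species with libraries in the same way. At 3L it was 93.5% to 96.3% in D. sechellia, D. erecta and D. virilis, against 78.5% to 84.2% in D. simulans and D. ananassae. A difference in mapping or counting between species thus cannot be told apart from the split in Or49b, and this was not tested.

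Or67a, Or13a and Or85f also had reads in the discs, at far lower levels. Or67a had 55.9 and 57.7 normalized counts in D. sechellia and 89.2 and 85.8 in the D. erecta libraries at 3L, against 0 in both libraries of D. simulans, and the D. melanogaster mean was 22.0. It was at least 10.7-fold higher in D. sechellia and 16.5-fold in D. erecta than the limit in D. simulans. Or13a had 17.2 and 25.2 in D. sechellia and 9.16 and 24.0 in the D. virilis libraries at 3L, against 1.57 and 0 in D. simulans, while D. erecta and D. ananassae were at 0. Or85f had 10.0 and 16.3 in D. sechellia, 12.2 and 10.96 in the D. erecta libraries, 13.95 and 18.4 in the D. ananassae libraries and 5.50 and 0 in the D. virilis libraries. The D. sechellia libraries spanned those of D. erecta and overlapped those of D. ananassae, while D. erecta lay below D. ananassae. The means of Or69a, Or49a and Or35a were at 2.99 or less in every species at 3L, and Or67b had 3.99 and 18.4 in D. ananassae and at most 5.50 in any other library. At 3L, 3 of 4 members tested passed in D. sechellia over D. simulans (48.7% of all genes), 2 of 4 in D. erecta (58.5%) and 2 of 3 in D. virilis (68.3%), all higher: Or49b in each, Or67a in D. sechellia and D. erecta, and Or13a in D. sechellia and D. virilis. The 2 calls of Or13a ended relative to Orco (limma adjusted p = 0.148 and 0.352), which had 4 and 2 reads in D. simulans. Or49b, Or67a and Or13a entered this test, added after the values were seen, only through species where they were high. Their D. simulans means were 0.785 or less. The upward direction of these calls thus came with the filter, a mean of 10 or more in some species.

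At p8 the same 3 genes were low. Or67a had 13.0 and 33.4 normalized counts in D. sechellia and 19.9 and 37.2 in the D. erecta libraries, against 0 and 1.52 in D. simulans. Or13a had 18.5 and 12.5 in D. sechellia and 14.6 and 10.2 in the D. virilis libraries, against 2.80 and 0 in D. simulans. The D. sechellia and D. virilis libraries lay above all others for Or13a. Or85f had 22.2 and 16.7 in D. sechellia, above 7.97 and 10.3 in the D. erecta libraries.

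**Figure D3:**
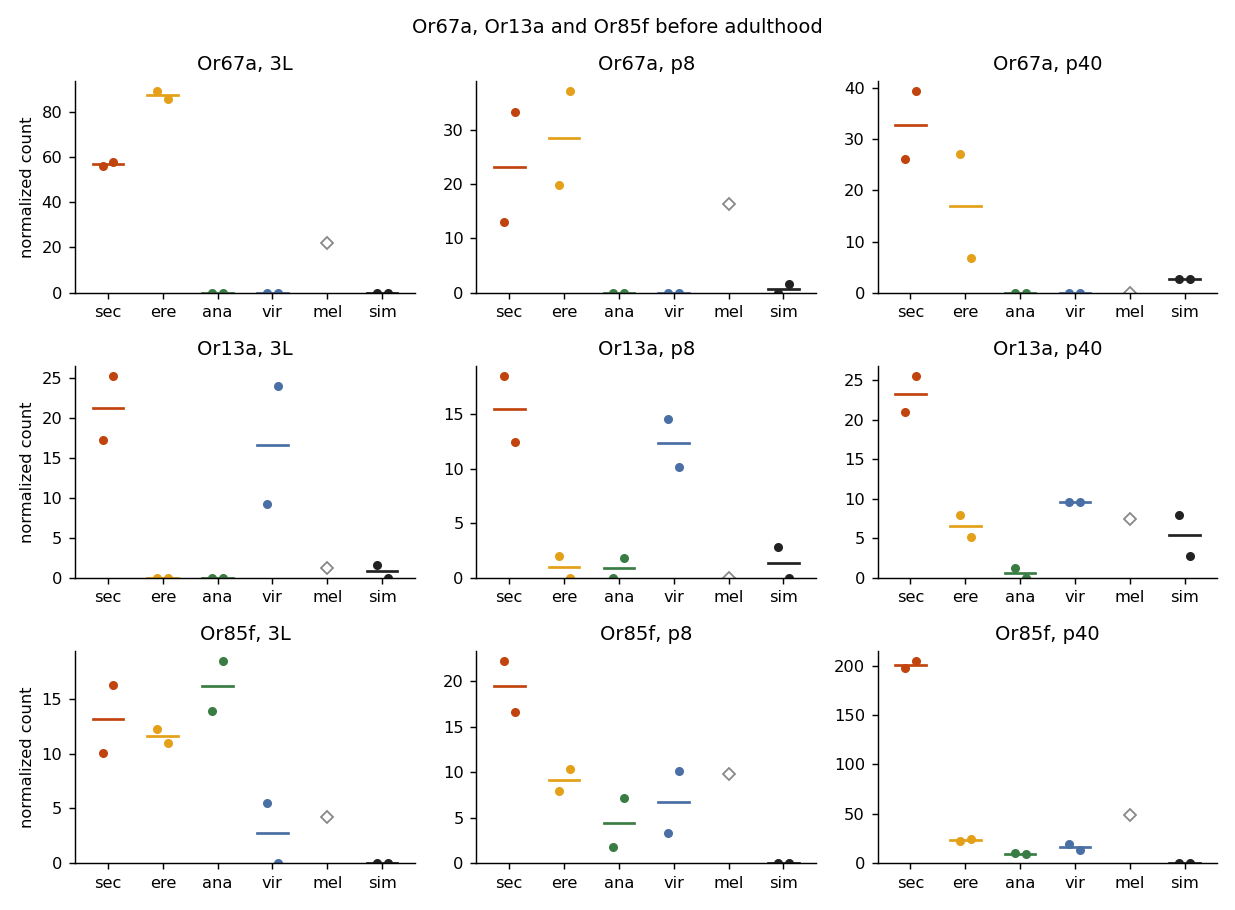
Normalized counts of Or67a, Or13a and Or85f at 3L, p8 and p40, with libraries as filled points, their mean as a line and the D. melanogaster mean as an open diamond. Or85f at p40 was at 197 and 204 in D. sechellia, while the other libraries were at 23.8 or less.

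At p40, when receptor expression begins, Or85f stood out in D. sechellia. It had 197 and 204 normalized counts in D. sechellia, 22.3 and 23.8 in the D. erecta libraries, 10.4 and 8.55 in the D. ananassae libraries and 19.1 and 12.8 in the D. virilis libraries, with a D. melanogaster mean of 48.0. D. sechellia was 3.07 ± 0.33 above D. erecta on the log2 scale (limma adjusted p = 0.000687), and 1.47 above it relative to Orco (adjusted p = 0.00148). In adults the order of these species was the other way round, with D. erecta above D. sechellia. Or49a, its partner in the same neuron, was at 0 in 8 of 10 p40 libraries and had 2 reads in each D. virilis library.

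Or67a at p40 had 26.2 and 39.4 normalized counts in D. sechellia and 27.1 and 6.81 in the D. erecta libraries, against 2.67 and 2.72 in D. simulans. D. sechellia was 11.9-fold above D. simulans by read pairs (exact 95% interval 3.71 to 60.6, limma adjusted p = 0.0133), and D. erecta was 6.44-fold above (1.92 to 33.7, adjusted p = 0.0558). Or13a had 20.9 and 25.5 in D. sechellia and 7.97 and 5.11 in the D. erecta libraries, against 8.00 and 2.72 in D. simulans, and D. sechellia was 2.06 ± 0.63 above D. simulans (limma adjusted p = 0.0312). Orco itself lay higher in D. sechellia at p40, with 171 and 155 normalized counts, against 40.0 and 35.3 in D. simulans. Relative to Orco neither call held, with 1.19 for Or67a (limma adjusted p = 0.119) and 0.13 for Or13a (adjusted p = 0.800). Both also ended without D. sechellia library A (adjusted p = 0.0531 for Or67a and 0.0899 for Or13a) or library B (0.0841 and 0.127), and that of Or13a without D. simulans library B (0.133).

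Or67b was at 3.49 to 23.2 normalized counts in all p40 libraries and differed in none of the 3 contrasts, with limma adjusted p from 0.740 to 0.887, though without D. sechellia library A it passed over D. simulans (1.53, adjusted p = 0.0469). Its 2 D. sechellia libraries alone spanned that range. Or69a and Or35a stayed at 8.55 or less in every p40 library and were not tested. Or49b, Or67a and Or13a entered the p40 tests only through species where they were high, with D. simulans means of 5.36 or less. The upward direction of their calls over D. simulans thus came with the filter. At p40, 3 of 4 members tested passed in D. sechellia over D. simulans (42.3% of all genes), 1 of 4 in D. erecta over D. simulans (46.8%) and 1 of 5 in D. sechellia over D. erecta (32.1%). Without D. sechellia library A the first of these counts was 2 (27.2% of all genes), and without library B it was 1 (27.1%).

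**Figure D4:**
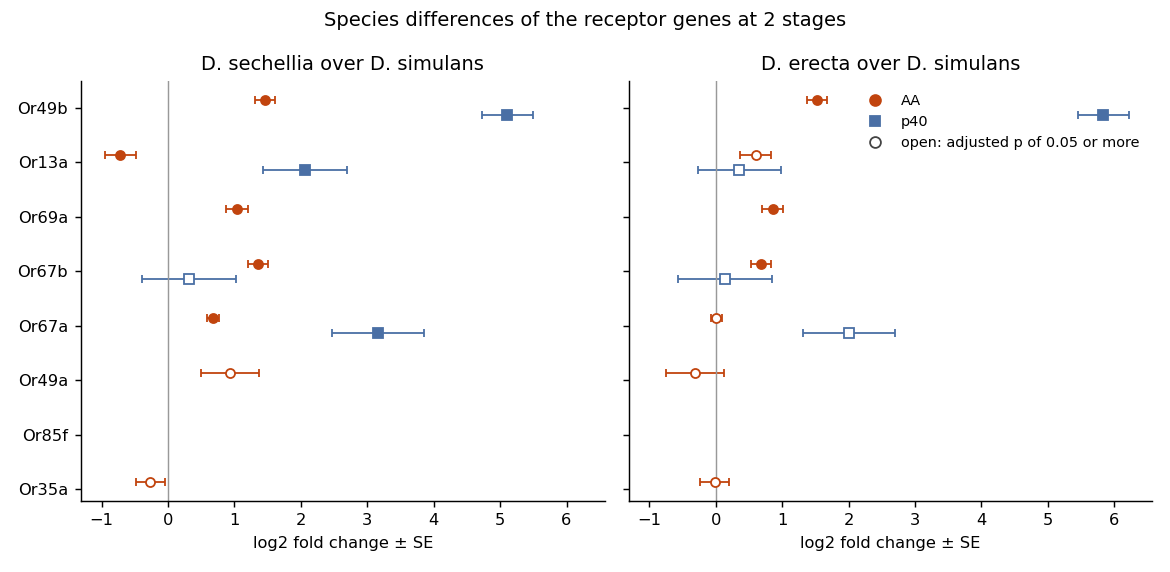
Log2 fold changes ± SE of the members over D. simulans, in D. sechellia (left) and D. erecta (right), with AA as circles and p40 as squares, and open symbols at an adjusted p of 0.05 or more. Or49b lay at 5.11 and 5.83 at p40 and at 1.46 and 1.52 in AA; Or85f has no value in D. simulans, and genes without a square were too low at p40 to be tested.

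The difference from D. simulans was smaller in adults than at p40 for several members. A test of the adult fold change minus the p40 fold change passed for 3 of 7 members in D. sechellia (22.4% of all genes) and 1 of 7 in D. erecta (30.2%), all below 0. For Or49b the difference was -3.65 ± 0.39 in D. sechellia (limma adjusted p = 7.23e-05) and -4.31 ± 0.39 in D. erecta (adjusted p = 7.96e-06). With a pseudocount of 10, which gives less weight to the few reads of D. simulans, it was -1.79 and -2.41, still past the test. Relative to Orco it was -1.41 in D. sechellia (limma adjusted p = 0.00272) and -3.57 in D. erecta (adjusted p = 5.52e-06). For Or13a in D. sechellia it was -2.78 ± 0.62 (limma adjusted p = 0.00762), where the gene was above D. simulans at p40 and below it in adults. Relative to Orco this became -0.68 (adjusted p = 0.247). For Or67a in D. sechellia it was -2.48 ± 0.69 (limma adjusted p = 0.0317). The Or67a call ended with a pseudocount of 10 (-1.06, adjusted p = 0.109), relative to Orco (-0.34, adjusted p = 0.655) and without any single D. sechellia or D. simulans library or either adult D. erecta library (adjusted p from 0.0504 to 0.102). Or67b and Or69a in D. sechellia did not pass in the report's fit (limma adjusted p = 0.320 and 0.296). Relative to Orco both passed above 0, at 2.84 for Or67b (limma adjusted p = 0.000430) and 1.21 for Or69a (adjusted p = 0.0216). With a pseudocount of 10, Or69a also passed above 0 (limma adjusted p = 0.0291). Or69a had no read at p40 in either species, so its values depend on the pseudocount.

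Each species was also scaled across its own p40 and adult libraries, so that its stages could be set side by side. By the median of ratios, 36 of the 37 values of the members were higher in AA than at p40 and passed the test: 8 of 8 in D. sechellia (34.5% of all genes were higher and passed), 8 of 8 in D. erecta (34.6%), 7 of 7 in D. ananassae (29.1%), 6 of 7 in D. virilis (32.4%) and 7 of 7 in D. simulans (30.4%). The exception was Or49a in D. virilis, at 1.99 ± 0.70 (limma adjusted p = 0.0548). Of the other antennal Or genes 27 of 27 were higher in D. sechellia and 28 of 28 in D. simulans. Their medians were 6.54 and 7.10, beside 5.31 and 6.75 for the members. These fits kept genes with a mean of 10 or more at p40 or in AA. Or69a, Or49a and Or35a had scaled p40 means of 5.01 or less in every species and entered only through AA. So did some values of the other members. The upward direction of such values thus came with the filter, which also held for the other antennal Or genes. Or49b, Or85f, Or67a, Or13a and Or67b in D. sechellia had scaled p40 means of 17.0 or more. The filter did not set the direction there. For Or49b the log2 fold change was 2.35 ± 0.18 in D. sechellia, with 1.60 ± 0.19 in D. erecta and 1.33 ± 0.19 in D. virilis, against 5.41 ± 0.41 in D. ananassae and 5.99 ± 0.44 in D. simulans. Or85f rose by 1.78 ± 0.092 in D. sechellia, against 4.81 to 5.38 in D. erecta, D. ananassae and D. virilis. Or13a rose by 1.46 ± 0.45 in D. virilis (limma adjusted p = 0.0379), a call that ended without either p40 library (0.0949 and 0.0981) or without AA library B (0.0643). The Or49b call in D. virilis ended without AA library B (adjusted p = 0.0627) and that of Or35a in D. ananassae without either AA library (0.104 and 0.0887).

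Where no read was found at p40, a bound replaces the fold. Or69a was at least 90.9-fold higher in AA than at p40 in D. sechellia, 93.4-fold in D. erecta and 41.1-fold in D. simulans. Or49a was at least 7.82-fold higher in D. sechellia, 3.72-fold in D. erecta, 7.76-fold in D. ananassae and 3.70-fold in D. simulans. The direction of the stage difference depended on the scaling. Relative to Orco, which itself was far higher in AA than at p40, 20 of the 37 values were lower in AA and passed, 6 were higher and passed, and 23 lay below 0. Or49b, Or67b, Or67a and Or85f then lay below 0 in every species with values, and Or69a stayed above 0 in all 5 species.

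**Figure D5:**
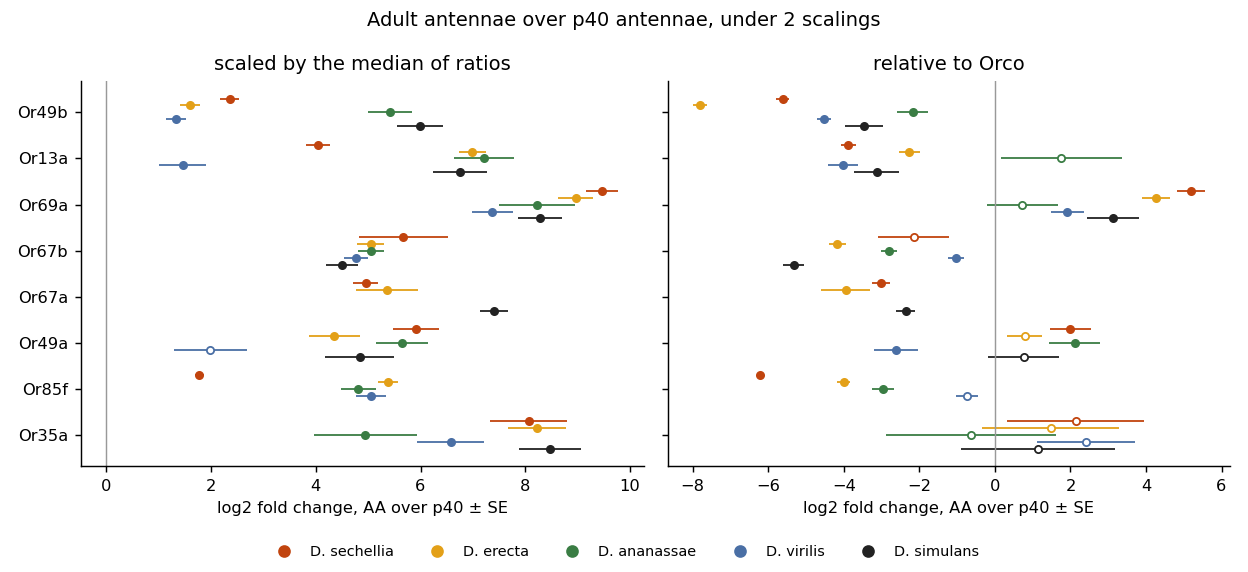
Log2 fold changes ± SE of AA over p40 within each species, scaled by the median of ratios (left) or relative to Orco (right), with filled points past the test. On the left Or49b lies between 1.33 and 2.35 in D. sechellia, D. erecta and D. virilis, and on the right most members lie below 0; values of genes with no read at p40, such as Or69a, depend on the pseudocount of 1.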

How the data were processed

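The deposited tables hold, for each stage, the signal per gene and species: the authors' mean of DESeq2-normalized transcript counts over the 2 libraries. The authors called bases with CASAVA 1.8, aligned read pairs with BWA 0.7.8 against the FlyBase transcripts of the same species, counted reads, joined species by FlyBase orthologs and normalized each stage separately. Of 24 mean columns, 4 belong to D. melanogaster. Reads per library were recovered as the only pair of whole numbers that gives a mean, a step tested on simulated means. Most counts are even, as both reads of a pair were counted. The share of even counts differed between species. At 3L it was 93.5% to 96.3% in the libraries of D. sechellia, D. erecta and D. virilis. In those of D. simulans and D. ananassae it was 78.5% to 84.2%.

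Genes at a mean of 10 or more in some species entered limma 3.58.1 in R 4.3.3 on log2(value + 1), with an intensity trend and Benjamini-Hochberg adjustment per contrast. Fits of AA over p40 used median-of-ratios scaling within a species and kept genes at a mean of 10 or more at p40 or in AA. A gene at 0 at all 4 stages was missing in that species. The test was tried on simulated counts. The counts do not separate PCR duplicates. Promoter, protein and receptor sequences were not used here.

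All 8 members are named by rule, with the 3 genes nearest in pattern for members at 30 or more in all species. The members and lists were chosen with earlier results of these data known. Alternatives were other pseudocounts (0.5 and 10), no trend, no filter or a filter of 30, rescaling to a median ratio of 1, levels relative to Orco, total scaling, fits of 2 species, each 0 as missing and leaving out each library. The 3L test, the count of genes with the Or49b pattern and the fit without the D. sechellia library with opsin reads were added after the data had been seen. In adults the libraries' Orco counts were not resolved, so Orco's mean per species was used at every stage. The adjusted p-values relative to Orco therefore hold no error of Orco itself.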

Additional observations from a re-analysis of the deposited data

Results flagged for a closer look

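The difference from D. simulans was not the same in AA and at p40 for 3 receptors, by a test of the adult minus the p40 log2 fold change. For Or49b it was -3.65 in D. sechellia and -4.31 in D. erecta. For Or13a in D. sechellia it was -2.78, with a fold change below 0 in AA and above 0 at p40. For Or67a in D. sechellia it was -2.48. Values for the same contrasts relative to Orco stand beside them in the report, and no cause was tested.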

How the results depend on the processing

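No called adult, p40, 3L or adult-minus-p40 value of the members changed its sign under any alternative run, but 11 of 50 adult calls, 2 of 5 at p40, 2 of 7 at 3L and 2 of 4 of the adult-minus-p40 calls were lost under at least 1, and so were 30 of 36 calls of AA over p40, mostly relative to Orco. The cause was not tested. No paired analysis was possible because the recovered libraries carry no replicate numbers, so the replicate block was not run. Where a library is left out, the lone library is taken to vary like the others. The few reads of Or49b in D. simulans discs, 0 to 2 per library, limit how closely its fold changes can be stated. At p8 both D. simulans libraries had 0 reads of it, although 1 of them held the most recovered reads of that stage, 26643600.

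Rescaling the species to a median ratio of 1 turned the sign of adult values near 0: Or35a in D. erecta over D. simulans was 0.019, and D. sechellia over D. virilis was -0.040 for Or49b and -0.024 for Or69a. Relative to Orco in adults, Or35a in D. erecta over D. simulans was 0.20, D. sechellia over D. virilis was -0.63 for Or49b, -0.61 for Or69a and -0.38 for Or85f (6 members called, 3 in the report), D. erecta over D. virilis was -0.52 for Or49b and D. ananassae over D. virilis was -0.49 for Or67b. Relative to Orco at p40, Or67b was -1.31 in D. sechellia and -0.32 in D. erecta over D. simulans, Or13a was -0.083 in D. erecta over D. simulans, and D. sechellia over D. erecta was -0.34 for Or67a and -0.99 for Or67b. For that contrast 2 members in place of 1 were called relative to Orco, with a pseudocount of 10 and in a fit of 2 species. At 3L, relative to Orco, Or67b was -0.42 in D. erecta and -0.34 in D. virilis. There, 1 member in place of 2 was called in D. erecta with each 0 as missing, and 1 in D. virilis relative to Orco or with a filter of 30. The adult minus p40 value of Or35a relative to Orco was 0.21 in D. sechellia and 0.25 in D. erecta.

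Relative to Orco, AA over p40 was, in D. sechellia, -3.88 for Or13a, -5.62 for Or49b, -3.01 for Or67a, -2.15 for Or67b and -6.21 for Or85f. In D. erecta it was -2.26 for Or13a, -7.80 for Or49b, -3.95 for Or67a, -4.17 for Or67b and -4.01 for Or85f. In D. ananassae it was -0.62 for Or35a, -2.18 for Or49b, -2.80 for Or67b and -2.95 for Or85f, with 4 members called in place of 7. In D. virilis it was -4.01 for Or13a, -2.62 for Or49a, -4.52 for Or49b, -1.04 for Or67b and -0.74 for Or85f. In D. simulans it was -3.12 for Or13a, -3.46 for Or49b, -2.36 for Or67a and -5.32 for Or67b.

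Leaving out each library in turn gave, in adults, -0.13 to 0.091 for Or35a and -0.0085 to 0.027 for Or67a in D. erecta over D. simulans. D. sechellia over D. erecta gave 2 to 5 members called and -0.17 to 0.051 for Or49b. D. sechellia over D. ananassae gave -0.49 to 0.10 for Or49a. D. sechellia over D. virilis gave -0.084 to 0.12 for Or49b, -0.19 to 0.041 for Or67b and -0.16 to 0.22 for Or69a, and D. erecta over D. virilis -0.35 to 0.037 for Or69a and -0.034 to 0.19 for Or49b. At p40, D. sechellia over D. simulans gave 1 to 3 members called and -0.90 to 1.53 for Or67b, D. erecta over D. simulans 1 to 2 and -0.28 to 0.99 for Or13a, and D. sechellia over D. erecta 1 to 2 and -1.04 to 1.39 for Or67b. At 3L, Or67b in D. sechellia gave -0.93 to 0.64 and Or13a in D. erecta -1.36 to 0. Adult minus p40 gave -0.17 to 2.26 for Or67b and -1.38 to 0.35 for Or35a in D. sechellia, and 1 to 2 members called, -0.39 to 0.89 for Or13a and -0.84 to 0.59 for Or35a in D. erecta.

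Over all genes, relative to Orco, D. sechellia over D. simulans called 8344 genes at p40 (4390 in the report's fit) and 8361 at 3L (4542), D. erecta over D. simulans 8476 at 3L (5500), and D. sechellia over D. erecta 8854 at p40 (3602). AA over p40 called 10917 in D. ananassae (6691), 10838 in D. virilis (7142) and 11177 in D. simulans (7005), and adult minus p40 8038 in D. sechellia (2373) and 5247 in D. erecta (3169). Leaving out 1 D. sechellia or D. erecta library at p40 gave 1774 to 2825 in the D. sechellia contrasts, and leaving out 1 AA library gave 3529 to 4636 for AA over p40 in D. ananassae, D. virilis and D. simulans. Without D. sechellia AA library B adult minus p40 called 1518.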
